A study of Mus musculus with 12 samples.

Results

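The 7 genes described here encode the core of the MHC class II antigen presentation pathway: Cd74, H2-Aa, H2-Ab1, H2-Eb1, H2-DMa, H2-DMb1 and Ciita. They were chosen by name among the 55487 genes of a deposited expression table, and all 7 were found and passed the filter on low values. The RNA came from stromal cells sorted out of mammary tumours of 3 untreated MMTV-PyMT mice on the FVB background, aged 10 weeks. In this model a mouse mammary tumour virus promoter drives an oncogene of polyomavirus in the mammary epithelium, so the sorted stroma carries the transgene without being its intended site of expression. Every gate kept live cells that stained for PDGFRb and did not stain for the leukocyte, endothelial and epithelial proteins CD45, CD31 and EPCAM. Ly6C-positive cells made up the population called icaf. The Ly6C-negative remainder gave vcaf (CD146-positive, PDGFRa-negative) and a fraction that was CD146-negative and PDGFRa-positive. That fraction was split by NCAM into m2cafneg (NCAM-negative) and m2cafpos (NCAM-positive). Each population was sequenced in bulk from each of the mice numbered 27, 30 and 31, which gave 12 libraries, and the question asked of them was how the 4 populations of cancer-associated fibroblasts (CAFs) differ in expression. In bulk RNA, a smaller number of cells of a type and less RNA per cell cannot be told apart.

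MHC class II molecules present peptides from the endocytic route to CD4+ T cells. An alpha and a beta chain pair in the endoplasmic reticulum with the invariant chain, which fills the peptide groove until proteases degrade it, and the DM molecule then exchanges the remaining fragment for antigenic peptide. Transcription of the whole set depends on the coactivator Ciita, which is recruited by factors bound to the conserved X and Y boxes of class II promoters and is induced by interferon gamma. Macrophages, dendritic cells and B cells are the usual sources of these transcripts, and fibroblasts that carry them have been described in tumours as antigen-presenting CAFs. FVB mice carry the q haplotype at the H2 locus, whereas the mm10 reference is from a strain of the b haplotype, and the effect of this on read assignment was not tested.

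Promoter windows are shown for H2-Aa, H2-Eb1 and H2-DMa as a description, and a link between promoter and level was not tested. In level, 6 of the 7 genes were high and low in the same populations while H2-Eb1 departed from them. How many of all genes separate in this way was not counted. Each window is the 120 bases before the gene start that RefSeq gives on GRCm38.p6, written 5′ to 3′ on the gene's strand. Capitals mark GNAAC, taken from the end of the X box, and ATTGG, the Y box, where GNAAC is followed by ATTGG with 30 to 35 bases between their starts.
H2-Aa, chr17:34287824-34287943, minus strand: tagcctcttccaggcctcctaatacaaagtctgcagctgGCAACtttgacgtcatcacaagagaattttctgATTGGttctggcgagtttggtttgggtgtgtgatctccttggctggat
H2-Eb1, chr17:34305747-34305866, plus strand: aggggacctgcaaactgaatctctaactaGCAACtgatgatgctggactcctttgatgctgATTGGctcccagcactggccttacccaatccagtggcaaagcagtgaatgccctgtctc
H2-DMa, chr17:34122712-34122831, plus strand: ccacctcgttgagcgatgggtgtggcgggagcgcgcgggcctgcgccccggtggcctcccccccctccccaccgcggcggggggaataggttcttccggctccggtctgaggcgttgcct

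The starts of the 2 motifs lay 33 bases apart in H2-Aa, with ATTGG beginning 48 bases before the gene start. In H2-Eb1 the distance was 32 bases and ATTGG began 59 bases before the start. The spaced motifs were searched on both strands in windows of 300 bases, 250 before and 50 after the start, and both the motifs and the spacing were chosen after looking at these sequences. The 12 class II genes were looked up by name, but Cd74 was left out of the count by a filter on its chromosome, 18. Of the rest, 8 had a promoter in the table, and 6 of these held the pair (H2-Aa, H2-Eb1, H2-DMb1, H2-Oa, H2-Ob and H2-Eb2). No entry was matched for the members H2-Ab1 and Ciita. The count therefore covers 4 of the 7 members, of which 3 held the pair. Among all 32851 promoters of the table, 1.04% held it. ATTGG alone was in 37.4% and GNAAC alone in 84.8% of promoters. H2-DMa, listed with 2 starts, had the pair at neither, which says only that these letters are not in those windows. The H2-DMa window printed above lies beside the gene Brd2, which is on the opposite strand and has its 5′ end at position 34122634. Both H2-DMa windows lie inside the GENCODE model of H2-DMa, which spans 34119541 to 34139101. Neither window therefore precedes the start of that model, and its upstream bases were not searched.

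The libraries held 43898839 to 55363203 reads assigned to genes. Values are CPM, counts per 1000000 of those reads, so that 1 read stood for 0.0181 to 0.0228 CPM. The labels were checked against defining markers. The summed level of 8 fibroblast genes was 70077 to 154733 CPM in icaf, m2cafneg and m2cafpos and 10066 to 12573 CPM in vcaf. The summed level of 7 pericyte genes was 34219 to 55698 CPM in vcaf and 120 to 483 CPM elsewhere, so the library set labelled vcaf carried mural cell markers at high levels and Pdgfra, a fibroblast receptor, at only 6.73 CPM. Transcripts of cells that the gates excluded were measured in every population, and their values stand beside the class II results below.

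Cd74, the invariant chain that chaperones class II dimers, was the most abundant member in each library. Its level was 399, 397 and 547 CPM in m2cafneg of mice 27, 30 and 31, and 383, 443 and 723 CPM in vcaf. It was 51.1, 85.0 and 88.8 CPM in icaf and 66.7, 76.2 and 80.3 CPM in m2cafpos of the same mice. The lowest library of m2cafneg and vcaf was thus above 380 CPM and the highest of icaf and m2cafpos below 90 CPM. Mean levels were 75.0 ± 20.8 CPM in icaf (SD, n = 3, as for all CPM means here), 448 ± 85.8 in m2cafneg, 74.4 ± 6.98 in m2cafpos and 516 ± 181 in vcaf. On the log2(CPM + 1) scale Cd74 was 2.75 higher in vcaf than in icaf (SE 0.25, limma adjusted p = 1.7e-06) and 2.56 higher in m2cafneg than in m2cafpos (SE 0.25, limma adjusted p = 0.000167). The neighbours in the order of levels did not differ beyond their spread. Cd74 differed by 0.17 between vcaf and m2cafneg (95% interval −0.37 to 0.70) and by 0.03 between m2cafpos and icaf (−0.51 to 0.56).

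H2-Aa and H2-Ab1 encode the alpha and the beta chain of the I-A molecule and lie on chromosome 17. H2-Aa reached 95.7, 111 and 128 CPM in m2cafneg of mice 27, 30 and 31, and 89.95, 111 and 163 CPM in vcaf. In icaf it was at 11.4, 26.5 and 20.3 CPM, and in m2cafpos at 15.1, 23.3 and 20.7 CPM. The 2 groups of populations did not overlap, as for Cd74. H2-Ab1 was at 120.4, 127.9 and 134 CPM in m2cafneg and at 118, 149.6 and 229 CPM in vcaf. It was at 16.6, 32.0 and 24.8 CPM in icaf and at 22.1, 25.1 and 20.5 CPM in m2cafpos. Both chains were therefore several times more abundant in m2cafneg and vcaf than in the other populations, with ratios of mean CPM of 5.75 for H2-Aa and 5.21 for H2-Ab1 in m2cafneg over icaf. Between vcaf and m2cafpos H2-Aa differed by 2.54 (SE 0.28, limma adjusted p = 1.14e-05) and H2-Ab1 by 2.77 (SE 0.24, limma adjusted p = 1.38e-06) on the log2 scale, higher in vcaf. Neither chain passed the test between vcaf and m2cafneg, where the log2 differences were 0.09 (−0.52 to 0.70) and 0.32 (−0.20 to 0.84).

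**Figure D1:**
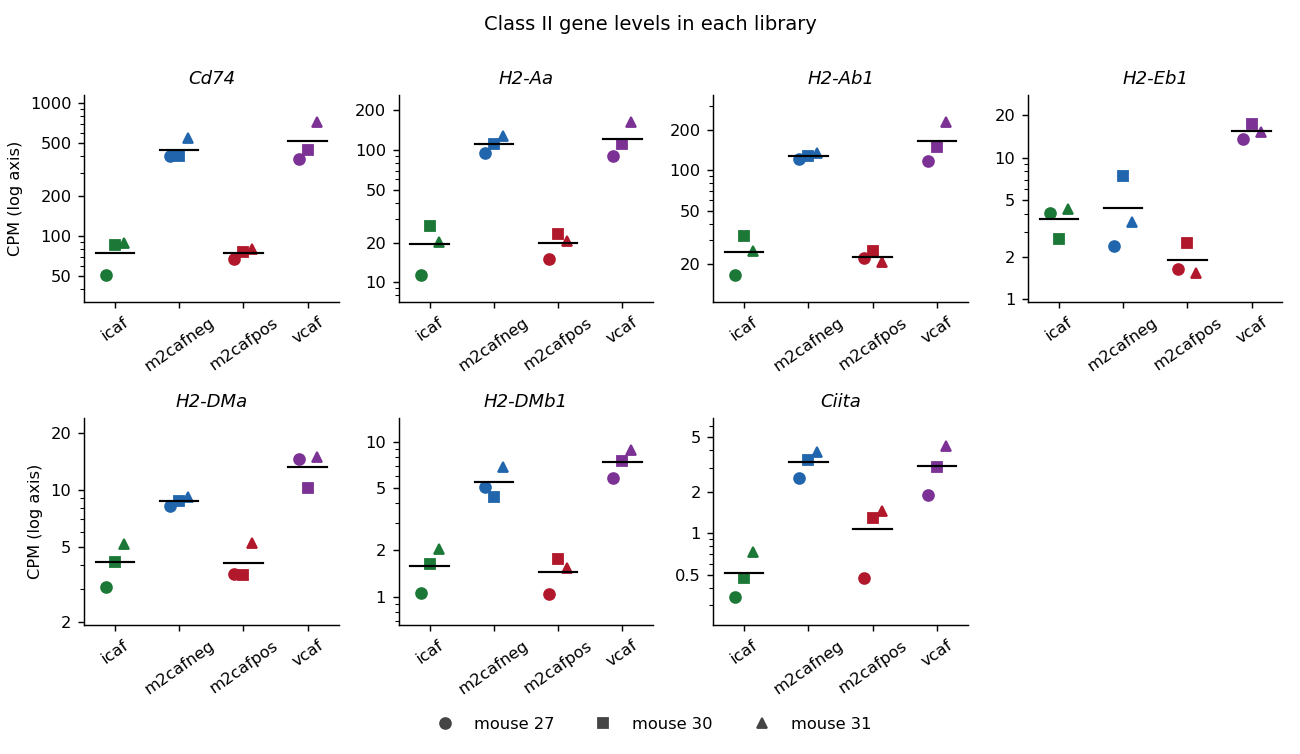
CPM of each of the 7 class II genes (log axis) in the 12 libraries, by population, with 1 point per mouse and a bar at the mean of 3 libraries. Points of m2cafneg and vcaf lie above all points of icaf and m2cafpos for every gene except H2-Eb1, whose m2cafneg points (2.37 to 7.45) overlap those of icaf and m2cafpos. How many of all genes separate in this way was not counted.

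H2-Eb1, the beta chain of the I-E molecule, did not follow that order. It was at 13.5, 17.4 and 15.2 CPM in vcaf of mice 27, 30 and 31, and at 2.37, 7.45 and 3.50 CPM in m2cafneg. It was at 4.06, 2.65 and 4.34 CPM in icaf and at 1.63, 2.48 and 1.53 CPM in m2cafpos. All vcaf libraries were above all others, while m2cafneg overlapped icaf. The difference between vcaf and m2cafneg was 1.69 on the log2 scale (SE 0.30, limma adjusted p = 0.000825), and H2-Eb1 was the only member to pass between these populations. Against icaf, m2cafneg differed by 0.13 (−0.52 to 0.77, limma adjusted p = 0.789). Against m2cafpos, m2cafneg differed by 0.82 (SE 0.30, limma adjusted p = 0.0579), with an adjusted p of 0.0374 once the mouse was included as a block in limma. That difference also passed without the m2cafneg library of mouse 27 (1.11, limma adjusted p = 0.0182) and with a pseudocount of 0.1 CPM (1.07, limma adjusted p = 0.0495). Its partner H2-Ea, which encodes the I-E alpha chain and is defective in the b and q haplotypes, was at 2.33 to 2.67 CPM in vcaf, 1.102 to 2.11 in m2cafneg, 0.342 to 0.531 in icaf and 0.445 to 0.547 in m2cafpos.

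H2-DMa and H2-DMb1 encode chains of the DM molecule, which edits the peptide cargo in endosomes. H2-DMa was at 14.5, 10.2 and 14.9 CPM in vcaf of mice 27, 30 and 31, and at 8.18, 8.75 and 9.10 CPM in m2cafneg. It was at 3.08, 4.17 and 5.19 CPM in icaf and at 3.58, 3.54 and 5.22 CPM in m2cafpos. All vcaf libraries were above all m2cafneg libraries, and these above all of icaf and m2cafpos. The step from m2cafneg to vcaf was 0.54 (SE 0.21, limma adjusted p = 0.0568), with an adjusted p of 0.0295 in limma with the mouse as a block. It passed, too, when mouse 27 was dropped from icaf (limma adjusted p = 0.0484) or mouse 30 from vcaf (0.70, limma adjusted p = 0.029). Against m2cafpos, vcaf was 1.48 higher (SE 0.21, limma adjusted p = 7.13e-05). The H2-DMa model shares 360 exon bases with Brd2 on the opposite strand, a gene at 53.8 to 235 CPM, and since the handling of strand is not given in the sources used here, its level is less certain than that of members without such an overlap. H2-DMb1 shares exon bases with no other gene. It was at 5.79, 7.45 and 8.86 CPM in vcaf, 5.12, 4.39 and 6.90 CPM in m2cafneg, 1.06, 1.63 and 2.04 CPM in icaf, and 1.05, 1.74 and 1.53 CPM in m2cafpos. The m2cafneg and vcaf libraries of H2-DMb1 overlapped and stood above all others, by 1.33 in m2cafneg against icaf (SE 0.22, limma adjusted p = 0.000907).

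Ciita, the master coactivator of class II transcription, was the least abundant member and rested on 18 to 219 reads in a library. It was at 2.50, 3.42 and 3.91 CPM in m2cafneg of mice 27, 30 and 31, and at 1.88, 3.01 and 4.29 CPM in vcaf. It was at 0.342, 0.472 and 0.733 CPM in icaf and at 0.470, 1.30 and 1.46 CPM in m2cafpos. Like Cd74, Ciita was higher in every m2cafneg and vcaf library than in any icaf or m2cafpos library, and m2cafpos overlapped icaf. It was 1.49 higher in m2cafneg than in icaf (SE 0.26, limma adjusted p = 0.00115), and 1.39 higher in vcaf than in icaf (SE 0.26, limma adjusted p = 0.00064). Because 1 CPM is added before the logarithm, these values understate the change of so low a gene, whose ratios of mean CPM were 6.36 and 5.94. The differences from m2cafpos were smaller, 1.07 for m2cafneg (SE 0.26, limma adjusted p = 0.0122) and 0.96 for vcaf (SE 0.26, limma adjusted p = 0.00575). Neither of these passed in edgeR on the recovered reads, where the adjusted p was 0.0763 for m2cafneg and 0.107 for vcaf. The first also missed without a filter on low values (limma adjusted p = 0.0508) and without the m2cafpos library of mouse 27 (0.83, limma adjusted p = 0.0549), and the second under median-of-ratios scaling (0.61, limma adjusted p = 0.0724). Ciita shares 329 exon bases with Dexi on the opposite strand, at 2.20 to 4.60 CPM, so part of its reads cannot be told apart from that gene's without strand.

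Counted over the pathway, all 7 members were higher in vcaf than in m2cafpos, a comparison in which 67.9% of the 15456 genes tested passed and 55.5% were higher. All 7 were also higher in vcaf than in icaf, where 59.9% of all genes passed and 46.1% were higher. In m2cafneg against m2cafpos 6 of 7 were higher (all but H2-Eb1), where 26.1% of genes passed and 22.6% were higher. In m2cafneg against icaf 6 of 7 were higher, again all but H2-Eb1, where 29.7% of genes passed and 20.9% were higher. Large shares of all genes thus passed in the comparisons with vcaf, and smaller shares in the comparisons of m2cafneg with icaf and m2cafpos. Only H2-Eb1 passed in vcaf against m2cafneg (37.9% of all genes passed, 26.6% higher). None passed in m2cafpos against icaf (23.9% of all genes). There H2-Eb1 was the single member with an unadjusted limma p under 0.05 (0.70 lower in m2cafpos, adjusted p = 0.112), and edgeR called 0. H2-Eb1 did pass there when only those 2 populations entered the limma fit (adjusted p = 0.043) and when the m2cafneg library of mouse 30 was left out (adjusted p = 0.0328).

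The median log2 difference of the 7 members was 2.52 in vcaf against m2cafpos and 1.82 in vcaf against icaf, where the medians over all genes were 0.51 and 0.36. It was 1.40 in m2cafneg against m2cafpos and 1.49 in m2cafneg against icaf, beside 0.23 and 0.12 over all genes. In vcaf against m2cafneg it was 0.32 beside 0.26, and in m2cafpos against icaf it was −0.00 beside −0.11. Comparisons that share a population share its libraries, so these values are not independent of each other. Scaling by median-of-ratios size factors, which moved the median of all genes by −0.49 in vcaf against m2cafpos and by −0.38 in vcaf against icaf, left 6 and 7 members higher there. Under that scaling the share of all genes called higher was 22.7% and 24.1%, and the share called lower 23.6% and 24.5%, in place of 55.5% and 46.1% higher and 12.4% and 13.9% lower. In vcaf against m2cafneg the scaling moved the median by −0.25, with 9.77% of genes higher and 15.7% lower in place of 26.6% and 11.3%. In m2cafneg against m2cafpos the shift was −0.24, with 8.56% higher and 8.41% lower in place of 22.6% and 3.51%, and 6 members stayed higher. In m2cafneg against icaf it was −0.13 (16.5% higher and 13.6% lower in place of 20.9% and 8.77%), and 6 members were higher. In m2cafpos against icaf it was 0.11 (11.7% higher and 9.84% lower in place of 8.86% and 15.0%), and 0 members passed.

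**Figure D2:**
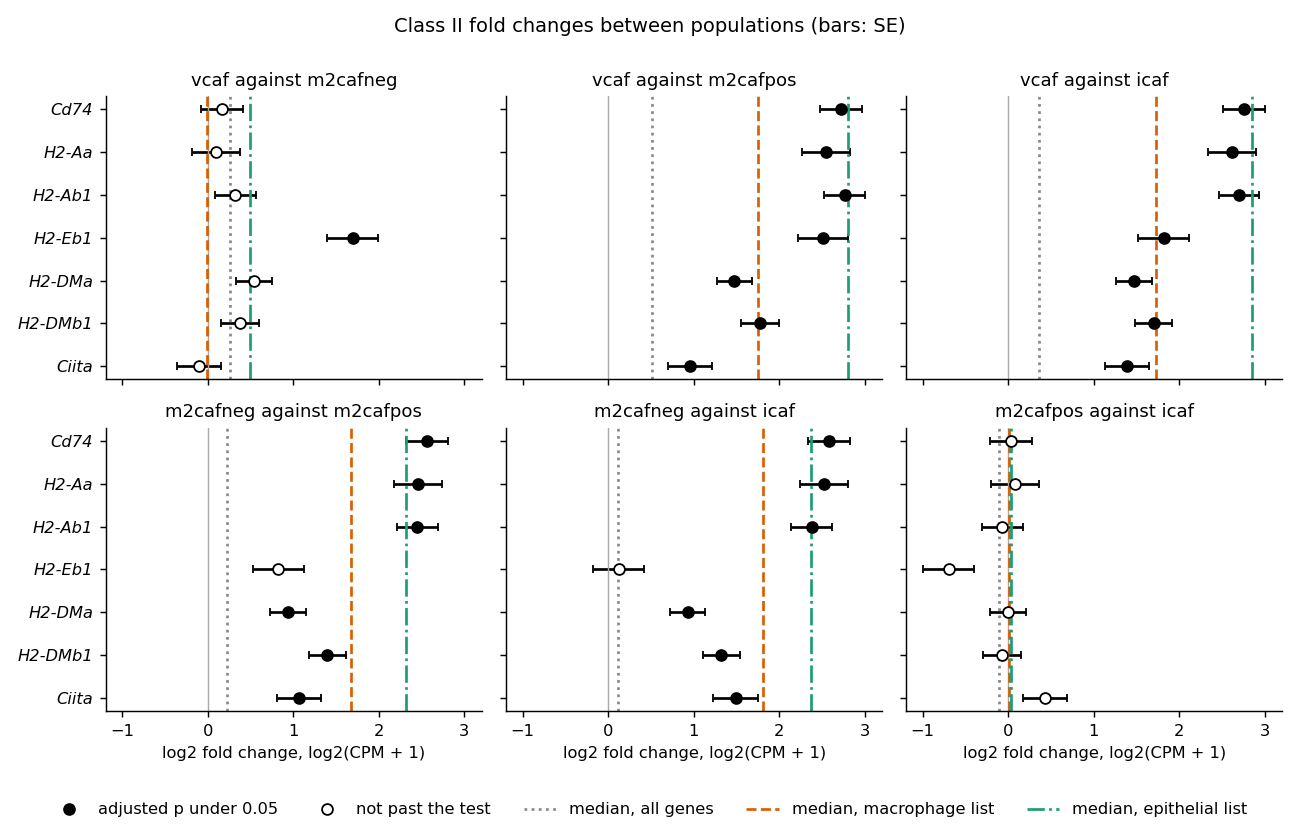
Log2 difference of each class II gene in the 6 pairwise comparisons (x axis, log2 of CPM + 1), with bars of 1 SE from limma, filled points past an adjusted p of 0.05, and lines at the medians of all 15456 genes and of the macrophage and epithelial lists. Values for the comparisons of vcaf or m2cafneg with icaf or m2cafpos lie between 0.13 and 2.77, and those of m2cafpos against icaf between −0.70 and 0.43.

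Levels were compared between genes per kb of exon. In vcaf Cd74 was at 308 CPM per kb, H2-Ab1 at 64.4, H2-Aa at 32.0, H2-Eb1 at 7.90, H2-DMb1 at 4.38, H2-DMa at 3.84 and Ciita at 0.321 CPM per kb. In icaf H2-DMa (1.202) stood above H2-DMb1 (0.939), and in m2cafneg H2-Eb1 (2.28) stood below H2-DMb1 (3.25) and H2-DMa (2.52). The proportions of the abundant members stayed within narrow ranges. For every 100 H2-Ab1 reads there were 265 to 407 reads of Cd74 and 68.1 to 101 reads of H2-Aa over the 12 libraries. The less abundant members varied more. H2-Eb1 had 1.97, 5.82 and 2.61 reads per 100 H2-Ab1 reads in m2cafneg of mice 27, 30 and 31. Its proportion was 8.29 to 24.5 in icaf, 7.34 to 9.90 in m2cafpos and 6.63 to 11.6 in vcaf, so no m2cafneg library reached the range of any other population. H2-DMa had 6.78 to 6.84 reads per 100 H2-Ab1 reads in m2cafneg and 6.53 to 12.3 in vcaf, below the 13.0 to 20.9 of icaf and the 14.1 to 25.4 of m2cafpos. The lower proportion of H2-DMa in m2cafneg and vcaf goes with its smaller fold differences. Ciita had 1.47 to 2.95 reads per 100 H2-Ab1 reads in icaf, 2.08 to 2.92 in m2cafneg, 2.12 to 7.11 in m2cafpos and 1.598 to 2.01 in vcaf. These proportions are a description of the libraries and were not tested.

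**Figure D3:**
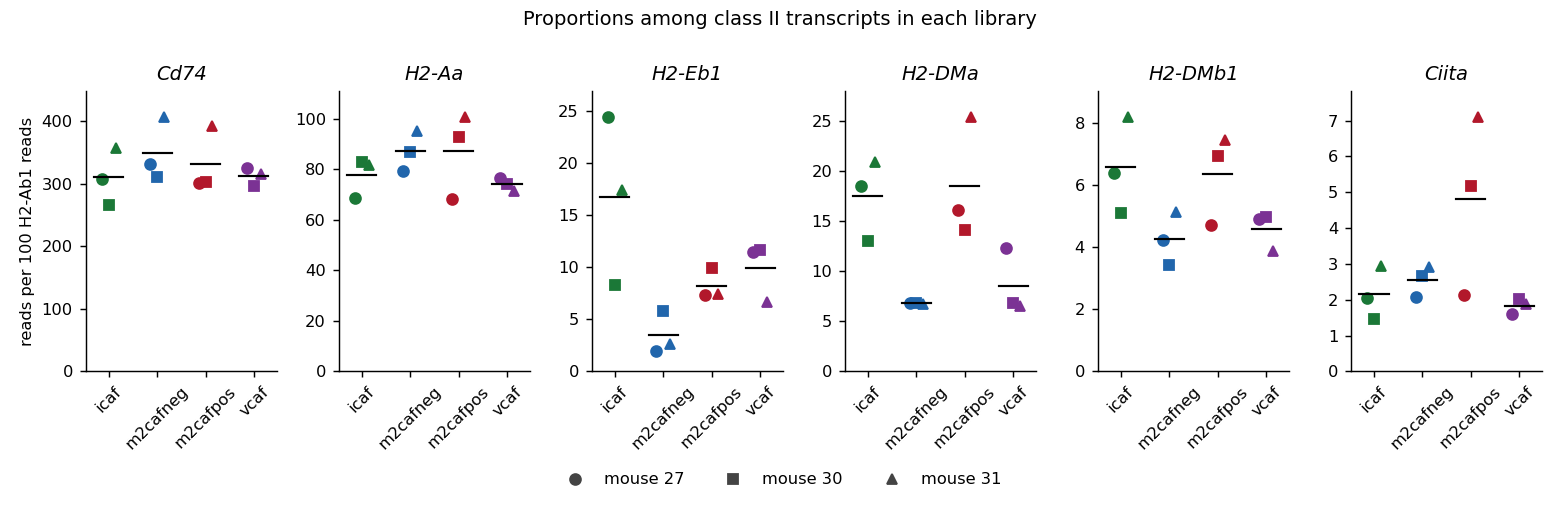
Reads of the other members per 100 H2-Ab1 reads (y axes starting at 0) in the 12 libraries, by population, with 1 point per mouse and a line at the mean. H2-Eb1 lies lowest in m2cafneg (1.97 to 5.82), and Cd74 ranges from 265 to 407 with all populations overlapping.

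Markers of macrophages, which express class II genes themselves, moved with these results although CD45-positive cells were gated out. The summed level of 20 macrophage genes was 273, 380.4 and 381 CPM in m2cafneg of mice 27, 30 and 31, and 278, 425 and 489 CPM in vcaf. It was 57.9, 89.99 and 90.3 CPM in icaf and 101, 119 and 71.7 CPM in m2cafpos. No macrophage gene was at 0 in all libraries of any population. Of 19 genes that passed the filter, 19 were higher in both m2cafneg and vcaf than in icaf, and 17 were higher in both than in m2cafpos, where Csf1r and Aif1 did not pass. Of all genes, 20.9% and 46.1% were higher in m2cafneg and vcaf than in icaf, and 22.6% and 55.5% than in m2cafpos. Median log2 differences of the 19 were 1.73 in vcaf against icaf, 1.76 in vcaf against m2cafpos, 1.81 in m2cafneg against icaf and 1.67 in m2cafneg against m2cafpos. In vcaf against m2cafneg the median was −0.01 and only the receptor kinase gene Mertk passed (0.58). The lysozyme gene Lyz2, the most abundant of the list, was at 23.6 ± 13.6 CPM in icaf, 86.9 ± 17.9 in m2cafneg, 24.1 ± 11.9 in m2cafpos and 135 ± 69.9 in vcaf. C1qa, a complement subunit gene, was at 5.54 ± 0.205, 27.1 ± 6.47, 5.60 ± 1.09 and 23.7 ± 2.74 CPM in the same order. Csf1r, the receptor for the macrophage growth factor, had another order, with 17.4 ± 3.30 CPM in m2cafpos near the 22.7 ± 2.92 of m2cafneg and the 21.7 ± 4.89 of vcaf, and 7.85 ± 2.23 CPM in icaf.

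Cd74 reads per 100 reads of the macrophage list numbered 104 to 146 in m2cafneg and 104 to 148 in vcaf, beside 88.2 to 98.4 in icaf and 64.2 to 112 in m2cafpos. Cd74 and the macrophage sum were thus high in the same libraries, and Cd74 per macrophage read was above all icaf values in m2cafneg and vcaf. Other members ran differently. H2-DMa reads per 100 macrophage reads numbered 2.30 to 3.00 in m2cafneg and 2.41 to 5.22 in vcaf, beside 4.63 to 5.75 in icaf and 2.98 to 7.27 in m2cafpos. H2-Eb1 reads numbered 0.870 to 1.96 in m2cafneg, 3.10 to 4.86 in vcaf, 2.95 to 7.03 in icaf and 1.61 to 2.13 in m2cafpos. The differences between these proportions were not tested. When the log2 macrophage sum was added to the limma fit as a covariate, 0 of 7 members passed in the 4 comparisons of m2cafneg or vcaf with icaf or m2cafpos. Cd74 then differed by 1.42 in vcaf against m2cafpos (limma adjusted p = 0.0884), 1.26 in vcaf against icaf (0.204), 1.37 in m2cafneg against m2cafpos (0.431) and 1.21 in m2cafneg against icaf (0.371). Over all genes, the share passing in these comparisons fell as well, to 13.1%, 8.92%, 0.00647% and 0.466%. Since the macrophage sums of m2cafneg and vcaf do not overlap those of icaf and m2cafpos, class II transcripts made by the sorted fibroblasts and RNA of macrophages cannot be told apart in these comparisons. H2-Eb1 in vcaf against m2cafneg, populations with overlapping macrophage sums, was 1.61 higher with the covariate (limma adjusted p = 0.00164). Sums of 6 pan-leukocyte genes did not overlap there, at 66.7 to 103 CPM in vcaf and 41.4 to 56.7 CPM in m2cafneg. Nor did sums of 8 T cell genes (16.4 to 19.5 and 5.29 to 11.3 CPM), while those of dendritic cell genes overlapped. The source of the H2-Eb1 difference was not tested.

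**Figure D4:**
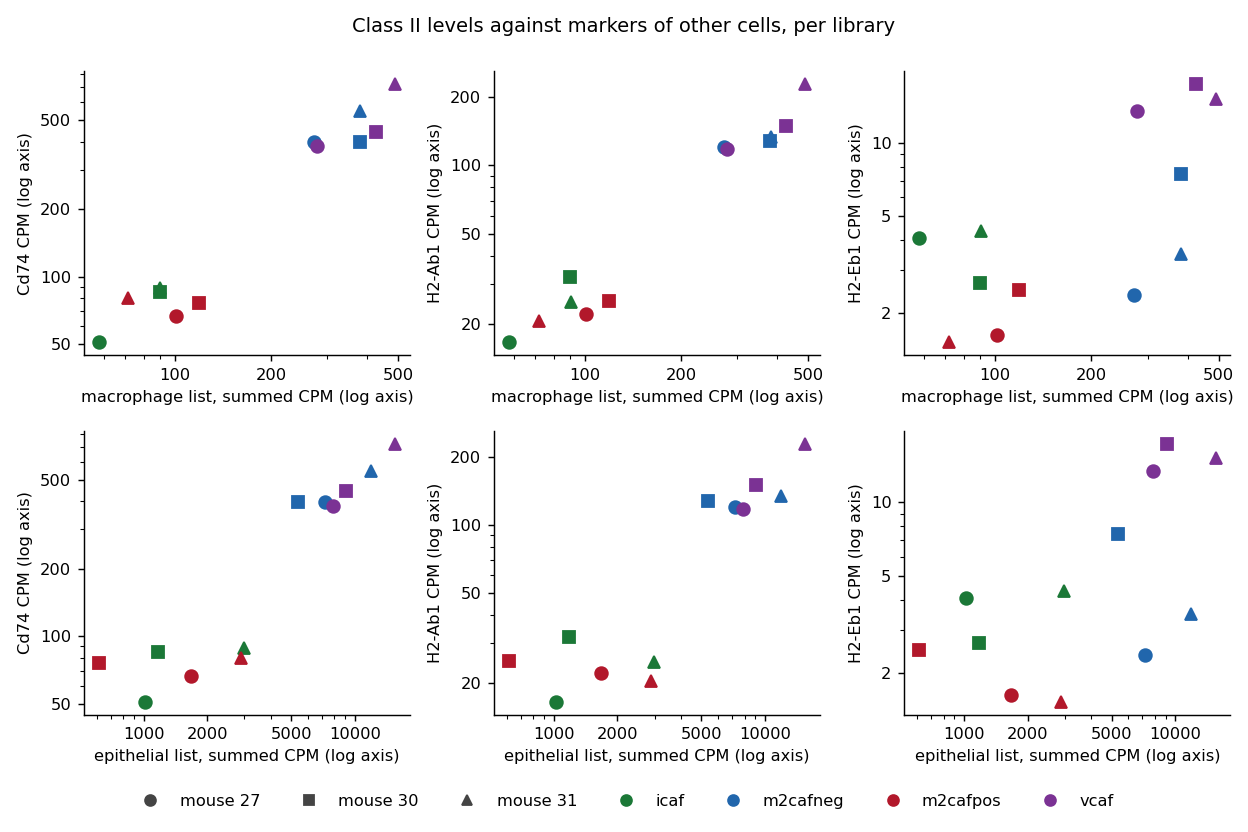
CPM of Cd74, H2-Ab1 and H2-Eb1 (y) against the summed CPM of the macrophage list and of the epithelial list (x) in the 12 libraries, on log axes, coloured by population with 1 symbol per mouse. By marker sum the libraries fall into separate clusters, with icaf and m2cafpos at macrophage sums of 57.9 to 119 CPM and m2cafneg and vcaf at 273 to 489 CPM.

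Markers of other cell types that the gates removed were measured as well. The summed level of 18 epithelial genes was 1020 to 2976 CPM in icaf and 612 to 2885 CPM in m2cafpos, beside 5385 to 11876 CPM in m2cafneg and 7893 to 15545 CPM in vcaf. None of the 18 was at 0 in any population, and 18 were higher in vcaf and 16 in m2cafneg than in each of icaf and m2cafpos, with 0 passing in vcaf against m2cafneg. The shares of all genes higher in vcaf were 46.1% (against icaf) and 55.5% (against m2cafpos), and in m2cafneg 20.9% and 22.6%. With the epithelial sum as covariate, the members higher were 5 of 7 in vcaf against m2cafpos, 5 of 7 in vcaf against icaf, 3 of 7 in m2cafneg against m2cafpos and 3 of 7 in m2cafneg against icaf. In those fits 30.7%, 22.4%, 1.93% and 4.35% of all genes passed, in the same order. The epithelial sums of m2cafneg and vcaf do not overlap those of icaf and m2cafpos either. Population and epithelial sum therefore cannot be told apart in these fits. Epcam itself was at 71.3 ± 38.3 CPM in icaf, 380 ± 124 in m2cafneg, 73.7 ± 47.9 in m2cafpos and 546 ± 171 in vcaf. The 13 endothelial genes overlapped more between populations, with sums of 171 to 303 CPM in icaf, 219 to 588 in m2cafneg, 76.9 to 143 in m2cafpos and 381 to 663 in vcaf, and Pecam1, which encodes CD31, had means of 8.99, 40.0, 7.77 and 69.4 CPM. Of these 13 genes, 11 were higher and 1 lower in vcaf against icaf, and 10 higher and 0 lower in vcaf against m2cafpos. In m2cafneg, 9 were higher and 1 lower against icaf, and 10 higher and 0 lower against m2cafpos. Among all genes, 46.1%, 55.5%, 20.9% and 22.6% were higher in these comparisons, in the same order. The lower gene among the 13 was Tek, an angiopoietin receptor. Tek was at 165 ± 42.8 CPM in icaf and 12.6 ± 5.26 CPM in vcaf (3.67 lower, SE 0.31, limma adjusted p = 1.03e-06). Cd14, a lipopolysaccharide coreceptor of myeloid and other cells, was at 88.3 ± 51.9 CPM in icaf, 504 ± 165 in m2cafneg, 106 ± 68.1 in m2cafpos and 750 ± 356 in vcaf. Ptprc, which encodes CD45, was at 0.720 ± 0.154, 3.64 ± 0.70, 0.941 ± 0.405 and 4.83 ± 1.78 CPM in that order. The 6 pan-leukocyte genes summed to 10.1 to 16.5 CPM in icaf, 41.4 to 56.7 in m2cafneg, 19.7 to 26.7 in m2cafpos and 66.7 to 103 in vcaf. T cell genes (8 listed) summed to 1.88 to 4.53, 5.29 to 11.3, 2.69 to 4.17 and 16.4 to 19.5 CPM in the same order. The 9 dendritic cell genes summed to 7.45 to 10.2 CPM in icaf, 22.6 to 35.7 in m2cafneg, 14.8 to 15.1 in m2cafpos and 27.8 to 29.3 in vcaf, with Siglech at 0 throughout m2cafpos. B cell genes were low, with 9 genes summing to 0.361 to 3.62 CPM over the 12 libraries. Of these, Ms4a1, Pax5 and Cr2 were at 0 throughout m2cafpos, and only Cd79b passed the filter. Cd79b was 1.30 lower in vcaf than in m2cafneg (SE 0.37, limma adjusted p = 0.0165). It was also 1.33 higher in m2cafneg than in icaf, which passed, and it did not pass in the other comparisons. The part of any of these cell types in the class II levels was not tested beyond the fits with a covariate.

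Of 5 further class II genes, 2 passed the filter, H2-Ea and H2-DMb2, a DM beta chain gene close in sequence to H2-DMb1. H2-DMb2 was at 1.75 ± 0.163 CPM in icaf, 5.35 ± 0.259 in m2cafneg, 1.38 ± 0.303 in m2cafpos and 9.21 ± 4.24 in vcaf, the order of most members. It was 2.03 higher in vcaf than in m2cafpos (SE 0.25, limma adjusted p = 2.33e-05), though reads could be split between the DM beta genes in ways that the sources do not state. Both genes passed in each comparison of vcaf or m2cafneg with icaf or m2cafpos, and H2-Ea also passed in vcaf against m2cafneg (0.52, limma adjusted p = 0.0326). Of all genes, 46.1% were higher in vcaf than in icaf, 55.5% than in m2cafpos and 26.6% than in m2cafneg. In m2cafneg 20.9% were higher than in icaf and 22.6% than in m2cafpos. The H2-O genes H2-Oa and H2-Ob, whose product restrains DM, stayed at or below 1.33 CPM in each library. H2-Eb2 was at 0 in all libraries of icaf and m2cafpos.

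Among 9 genes of class II processing and turnover, the order of most members was seen for Ctss and not for Ctsl, Ctsb or Ifi30. Ctss, the protease that trims the invariant chain in professional antigen-presenting cells, was at 8.01 ± 2.79 CPM in icaf, 36.5 ± 3.13 in m2cafneg, 7.83 ± 1.43 in m2cafpos and 47.0 ± 24.6 in vcaf. The Ctss difference of 2.34 between vcaf and m2cafpos (SE 0.30, limma adjusted p = 3.33e-05) was of the size seen for Cd74. Ctsl, a cathepsin of wide expression, ran the other way, at 707 ± 66.5, 469.6 ± 76.7, 405 ± 46.4 and 181 ± 35.1 CPM in the same order of populations, and was 1.97 lower in vcaf than in icaf (SE 0.16, limma adjusted p = 7.26e-07). Ctsb was lower in vcaf too, by 0.98 against m2cafneg (SE 0.14, limma adjusted p = 0.000166). Ifi30, a lysosomal thiol reductase of antigen processing, was at 29.1 ± 4.73 CPM in m2cafpos, close to the 32.6 ± 6.78 of m2cafneg and 33.3 ± 1.25 of vcaf, and at 13.3 ± 2.15 CPM in icaf. Of the 8 genes tested, 1 was higher and 3 lower in vcaf against m2cafpos (55.5% and 12.4% of all genes). In vcaf against icaf 3 were higher and 2 lower (46.1% and 13.9%), and against m2cafneg 0 and 3 (26.6% and 11.3%). In m2cafneg, 1 was higher and 0 lower against m2cafpos (22.6% and 3.51% of all genes). Against icaf 4 were higher and 1 lower in m2cafneg (20.9% and 8.77%).

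A list of 15 genes for class II promoter factors and interferon gamma signalling, all of them tested, held 10 that were higher and 1 lower in vcaf against m2cafpos, where 55.5% of all genes were higher. In vcaf against icaf 10 were higher and 2 lower (46.1% of all genes higher), and in vcaf against m2cafneg 5 were higher and 1 lower (26.6% of all genes higher). In m2cafneg, 6 were higher and 0 lower against m2cafpos (22.6% of all genes higher), and 3 were higher and 1 lower against icaf (20.9%). In m2cafpos against icaf 0 were higher and 2 lower (8.86% and 15.0% of all genes). The list's share of higher genes was closest to that of all genes in m2cafneg against icaf. It was somewhat above that of all genes in vcaf against m2cafpos and m2cafneg. The margin was wider in vcaf against icaf (10 of 15 beside 46.1%) and in m2cafneg against m2cafpos (6 of 15 beside 22.6%). Irf8, a transcription factor of myeloid and B cells, was at 1.58 ± 0.249 CPM in icaf, 6.28 ± 2.64 in m2cafneg, 2.41 ± 0.207 in m2cafpos and 27.7 ± 6.34 in vcaf, and was 2.02 higher in vcaf than in m2cafneg (SE 0.24, limma adjusted p = 4.08e-05). Irf1, an interferon-induced factor that acts on Ciita, followed the members, at 48.5 ± 5.62, 101 ± 3.46, 56.0 ± 7.28 and 128 ± 38.8 CPM. Ifngr1, the ligand-binding chain of the interferon gamma receptor, had its lowest level in vcaf, at 152 ± 22.3 CPM beside 436 ± 58.1 in icaf, 516 ± 35.7 in m2cafneg and 276 ± 15.5 in m2cafpos. The vcaf population thus combined high class II levels with low Ifngr1, by 1.77 against m2cafneg on the log2 scale (SE 0.13, limma adjusted p = 3.63e-07). Rfx5, which binds the X box, passed in vcaf and m2cafneg against icaf only, by 0.54 and 0.66 (limma adjusted p = 0.0326 and 0.0251).

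Co-stimulatory genes, whose products deliver the second signal to T cells beside class II, differed from each other in their order over the populations. Of 7 listed, 5 were tested. Cd40 was at 25.2 ± 11.5 CPM in m2cafneg and 27.0 ± 7.28 in m2cafpos, beside 2.50 ± 1.55 in icaf and 2.72 ± 0.343 in vcaf. High Cd40 was therefore shared by the PDGFRa-positive, Ly6C-negative gates whether class II levels were high or low, and vcaf was 2.70 lower than m2cafneg (SE 0.41, limma adjusted p = 0.000252). Icosl was at 40.1 ± 11.1 CPM in icaf, 26.2 ± 7.92 in m2cafneg, 4.84 ± 2.19 in m2cafpos and 11.0 ± 3.33 in vcaf. Cd80 was at 0.536 ± 0.263 CPM in vcaf and between 2.54 and 2.83 CPM on average elsewhere. The checkpoint ligand gene Cd274 was also lowest in vcaf, at 1.499 ± 0.118 CPM, 1.003 below m2cafneg (SE 0.18, limma adjusted p = 0.000952). Cd86 alone had the members' order, with 1.57 ± 0.466 CPM in m2cafneg and 1.498 ± 0.590 in vcaf beside 0.249 ± 0.309 in icaf and 0.273 ± 0.191 in m2cafpos. In vcaf, 0 were higher and 4 lower against m2cafneg, where 26.6% of all genes were higher and 11.3% lower. Against m2cafpos 2 were higher and 3 lower (55.5% and 12.4% of all genes), and against icaf 1 and 3 (46.1% and 13.9%). In m2cafneg, 2 were higher and 0 lower against m2cafpos (22.6% and 3.51% of all genes). Against icaf 2 were higher and 0 lower in m2cafneg (20.9% and 8.77%).

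Genes used elsewhere to mark antigen-presenting CAFs and mesothelial cells showed no common pattern. Slpi, a secreted protease inhibitor, was at 5.28 ± 2.34 CPM in icaf, 27.1 ± 4.78 in m2cafneg, 12.5 ± 2.74 in m2cafpos and 33.7 ± 15.2 in vcaf, and was 2.42 higher in vcaf than in icaf (SE 0.32, limma adjusted p = 4.87e-05). Saa3, an acute-phase protein gene, was highest in icaf at 16.0 ± 9.17 CPM and 1.596 lower in vcaf (SE 0.48, limma adjusted p = 0.0123). Of 11 listed genes 5 passed the filter, and the mesothelial genes Msln, Upk3b, Upk1b, Lrrn4, Bnc1 and Muc16 did not. Msln, which encodes mesothelin, was at 0.0258 CPM in icaf, 0.899 in m2cafneg, 0 in m2cafpos and 0.171 in vcaf, and Lrrn4 was at 0 in all libraries of icaf, m2cafneg and vcaf. Wt1, a mesothelial and stromal transcription factor gene, was higher where class II was low, at 3.40 ± 1.63 CPM in icaf and 3.78 ± 0.232 in m2cafpos beside 0.544 ± 0.208 in m2cafneg and 0.103 ± 0.082 in vcaf. Rspo1, a secreted enhancer of Wnt signalling, was highest in m2cafpos at 5.73 ± 0.639 CPM and 2.29 lower in vcaf (SE 0.19, limma adjusted p = 1.21e-06).

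The genes most like the members were sought by Pearson's r over the 12 libraries with the members' mean z-score of log2(CPM + 1), among 10406 genes with a mean of at least 5 CPM. The 10 highest were Gtf2i (r = 0.985), Coro1a (0.985), Rgl3, Rnf207, Cdip1, Cln3, Ets2, Fam241b, Trp53bp2 and Ccdc120 (0.975). Coro1a encodes a leukocyte actin regulator. The median r was 0.57 over all ranked genes, 0.947 over 12 macrophage genes, 0.934 over 4 pan-leukocyte genes, 0.915 over 10 endothelial genes and 0.899 over 18 epithelial genes. It was 0.756 over 7 pericyte genes, 0.722 over 2 dendritic cell genes and −0.674 over 8 fibroblast genes. The libraries share population, mouse and depth, so these values are descriptions. After each population's mean was subtracted the 10 highest were Gas6 (r = 0.957), Oplah, Gatd3a, Plekhf1, Mpdu1, Sgk1, Dab2, Eef2, Capn5 and Nim1k (0.915). No gene was in both sets of 10. The median within populations was −0.00 over all genes, 0.704 over 10 endothelial genes, 0.645 over 4 pan-leukocyte genes, 0.565 over the macrophage genes and 0.41 over the epithelial genes. Dendritic cell genes ran the other way, with a median of −0.547 over 2 genes. The median was 0.182 over the pericyte genes and −0.016 over the fibroblast genes. Within populations Cd74 followed H2-Aa (r = 0.899) and H2-Ab1 (0.864), whereas H2-Eb1 and Cd74 had an r of −0.11.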

How the data were processed

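Bulk RNA-seq of 12 libraries was used (4 sorted populations, 3 mice each). The authors' deposited table gives CPM per gene, divided by the reads assigned to genes. Per the submitters' processing notes, bcl2fastq, DRAGEN and mm10 were used; no source used here names the counting tool, annotation or strand setting. The table had 55774 lines, of which 287 repeated an identifier (0 differed). Values were whole multiples of 1 read in 100% of cases (tolerance 0.001 reads), which gave reads for edgeR 4.0.16. Positions and exon lengths came from GENCODE M21 on GRCm38, which held 99.4% of identifiers, and promoters from RefSeq.

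The 15456 genes that reached 1 CPM in 3 or more libraries entered a two-sided limma 3.58.1 trend fit (R 4.3.3) of log2(CPM + 1) (8 residual and 4.29 prior degrees of freedom). All 4 populations were fitted together, and p-values were adjusted by Benjamini-Hochberg over all genes per comparison (threshold 0.05). On simulated data for vcaf against m2cafneg (15456 genes), 99% of 4-fold and 30% of 2-fold changes were recovered. The simulation changed 100 genes at each fold, with a common dispersion (0.0728) and no effect of the mouse, and 10 unchanged genes were called. In the data 37.9% of genes passed in this comparison and libraries of a mouse were correlated. The recovered shares therefore check the code and do not give the power of the tests. A label reading 27_vacf was taken as vcaf of mouse 27. Library titles number the mice, and deviations from population means correlated with a median r of 0.293 (0.0843 to 0.452) between libraries of the same mouse and −0.149 between different mice.

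The 7 members and the 16 gene lists were chosen with earlier results of these data known. From each list, up to 4 genes past the test with the smallest adjusted p were named, with all members, the most abundant macrophage and epithelial genes and the sort genes; Aif1, Cd86, Rfx5, the mesothelial genes below the filter, the H2-O genes, H2-Eb2 and the named markers at 0 were chosen after their values were seen. Not every gene this rule picks is printed, and the others enter the counts. Alternatives tried were a pseudocount of 0.1 CPM, no filter, median-of-ratios scaling, the mouse as a block, macrophage or epithelial sums as covariates, edgeR, only the populations compared, and leaving out each library.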

Additional observations from a re-analysis of the deposited data

How the results depend on the processing

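Counts of members past the test were recomputed under 20 alternatives. In vcaf against m2cafneg the count was 1, and 2 with the mouse as a replicate block (H2-DMa added), with 1 to 2 when libraries were left out in turn. With the macrophage sum as covariate the counts were 0 in vcaf against m2cafpos, 0 in vcaf against icaf, 0 in m2cafneg against m2cafpos and 0 in m2cafneg against icaf, in place of 7, 7, 6 and 6. The shares of all genes passing fell as well, to 13.1%, 8.92%, 0.00647% and 0.466% in the same order. With the epithelial sum as covariate both m2cafneg counts were 3, where 1.93% (against m2cafpos) and 4.35% (against icaf) of all genes passed. Leaving out each library gave 5 to 7 in m2cafneg against m2cafpos and left the counts of 7, 7 and 6 in vcaf against m2cafpos, vcaf against icaf and m2cafneg against icaf. In m2cafpos against icaf the count was 0, with 0 to 1 when libraries were left out and 1 when only those populations entered the fit (6 members tested). The block added H2-Eb1 in m2cafneg against m2cafpos (7 of 7) and changed no other call. The direction of a called value turned in 1 case, Ciita in vcaf against m2cafpos, which was −0.00874 with the macrophage covariate (limma adjusted p = 0.995). Among values not past the test, Cd74 ranged from −0.11 to 0.35 and H2-Aa from −0.19 to 0.28 in vcaf against m2cafneg. The causes were not tested. Groups of 3 libraries and the 0.0683 CPM that 3 reads can stand for limit what was detectable.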

Other observations

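Some genes named for leukocytes departed from the macrophage pattern in vcaf, and these were picked out after their values were seen. Vav1, a signalling factor of blood cells, was at 27.1 to 30.8 CPM in vcaf, 2.18 to 6.05 in m2cafneg, 0.826 to 1.01 in icaf and 0.632 to 1.28 in m2cafpos. It was 2.58 higher in vcaf than in m2cafneg (SE 0.25, limma adjusted p = 6.51e-06), although Ptprc was at 3.05 to 6.61 CPM in vcaf and 2.90 to 4.29 CPM in m2cafneg and did not pass between them (0.29, limma adjusted p = 0.342). Trac, a constant segment of the T cell receptor, was at 9.17 to 13.1 CPM in vcaf and 0.315 to 1.54 CPM in m2cafneg, 2.73 higher in vcaf (SE 0.23, limma adjusted p = 1.39e-06). The source of these transcripts was not tested.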
